A study of Rattus norvegicus with 24 samples.

Results

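The comparison described here was between treated polycystic rat kidneys that kept a high level of Spp1, the gene of osteopontin, and untreated polycystic kidneys. Osteopontin is a secreted phosphoprotein of the matrix that tubular cells make in larger amounts when the kidney is injured or cystic. Spp1 was expressed as CPM, the count of the gene divided by the total count of its library and scaled to the same library size in all kidneys. A treated kidney was taken as a member when its Spp1 level was 1000 CPM or more. Of the 18 treated kidneys 14 met this rule, and they were set against all 6 untreated kidneys, so that 20 of the 24 libraries of the series entered. The question was what treatment changed once the low-Spp1 kidneys were left out, and whether the 3 treatments differed from each other.

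All animals were male PKD/Mhm (Cy/+) rats, heterozygous for a missense change in Anks6, and their kidneys were collected at 8 months of age. Treated animals had received injections every month for 6 months. The untreated group was named Ctrl. CoCM animals received medium from human skin-derived ABCB5+ stromal cells that had been cultured together with THP-1-derived macrophages under IFN-γ and LPS, and the submitters' texts differ on whether this medium was given intravenously or intraperitoneally. The remaining groups received the ABCB5+ cells themselves, either intraperitoneally (i.p. ABCB5+) or intravenously (i.v. ABCB5+). RNA came from the whole left kidney, snap-frozen before perfusion, so that blood cells were still in the tissue. Each library was named by its group and animal number. All Ctrl animals had lower numbers than all treated animals, and any effect of that order cannot be told apart from treatment.

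In heterozygous Cy/+ rats cysts arise mainly from the proximal tubule, and the kidney loses function slowly while matrix and inflammatory cells build up around the cysts. Anks6 encodes a ciliary protein that works together with the products of Nek8 and Invs. In a whole-kidney library a lower level of a marker gene can mean fewer cells of that type or less RNA per cell, and these cannot be told apart.

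The rule divided the treated kidneys widely. Among the 14 members Spp1 lay between 6608.9 and 13169.6 CPM, with a median of 9524.0 CPM. The member nearest the threshold was i.v. ABCB5+ 43, at 6608.9 CPM. The 4 treated kidneys outside the rule were CoCM 39 at 333.2 CPM, i.p. ABCB5+ 38 at 377.8 CPM, i.v. ABCB5+ 37 at 542.2 CPM and i.v. ABCB5+ 36 at 545.6 CPM. No kidney fell between these values, and a threshold of 5000 CPM chose the same 14 members. The 6 Ctrl kidneys lay between 7310.1 and 11169.4 CPM, inside the range of the members. The 14 members were 5 CoCM, 5 i.p. ABCB5+ and 4 i.v. ABCB5+ kidneys. The members were chosen by these Spp1 values, which were not tested. Only treated kidneys were left out by the rule, so a gene that moves with Spp1 among treated kidneys was shifted by the choice itself.

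**Figure D1:**
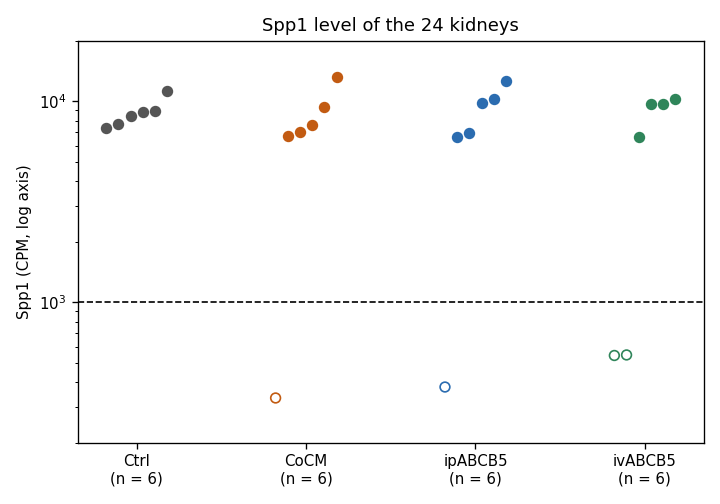
Spp1 level in CPM (log axis) of each of the 24 kidneys by group. Filled points entered the comparison, open points are the 4 treated kidneys left out, and the dashed line is the threshold of 1000 CPM, with every filled treated point at 6608.9 CPM or more.

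The 20 libraries held between 10209460 and 14125457 estimated counts, and 12751 genes passed the filter on low counts. Markers of the nephron were abundant in all of them. On the TPM scale, which takes transcript length into account, the phosphate transporter gene Slc34a1 lay between 357 and 1850 TPM, Umod between 671 and 3780 TPM and the water channel gene Aqp2 between 255 and 754 TPM. The adrenal gene Cyp11b1 did not exceed 0.0826 TPM and the muscle gene Acta1 did not exceed 1.51 TPM. Adipoq, a hormone gene of fat cells, was at a median of 20.6 TPM and reached 131 TPM in CoCM 34. The first principal component of the 20 libraries held 29.8% of the variance and the second 22.7%, and on both of them the 4 groups overlapped.

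Pooled, the 14 high-Spp1 treated kidneys did not differ from the 6 Ctrl kidneys in any gene after adjustment for multiple testing. In the edgeR quasi-likelihood test 0 of 12751 genes (0%) had an adjusted p under 0.05, and the smallest adjusted p was 0.902. Without adjustment 530 genes (4.16%) had a p under 0.05, of which 317 (2.49%) were higher and 213 (1.67%) lower in the treated kidneys. DESeq2, the tool the study used, also called 0 genes, with 609 at an unadjusted p under 0.05, and limma voom with quality weights called 0, with 1109. The smallest adjusted p was 0.0811 by DESeq2 and 0.474 by limma voom. The data bounded the differences in most genes. The median half-width of the 95% interval of a log2 fold change was 0.24, and for 95.2% of genes the whole interval lay within a 2-fold change in either direction. For 78.2% of genes it lay within a 1.5-fold change. The estimated log2 fold change was beyond 1 in either direction for 30 genes. No gene had all 14 treated kidneys above, or all 14 below, the Ctrl range (0% in each direction).

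The genes described in this paragraph were picked after their values were seen, as those with the smallest unadjusted p among genes that leaned the same way in each treatment, and none passed adjustment. Msl3l2, a relative of a chromatin factor gene, lay between 4.147 and 6.22 CPM in Ctrl (median 5.25 CPM) and between 2.933 and 4.819 CPM in treated kidneys (median 3.40 CPM). In 11 of 14 treated kidneys Msl3l2 was below every Ctrl kidney, and the pooled log2 fold change was -0.57 (95% interval -0.82 to -0.33, adjusted p = 0.902 by edgeR). The 3 estimates for Msl3l2 were close to each other, at -0.62 for CoCM, -0.47 for i.p. and -0.65 for i.v. ABCB5+. Hcar1, the gene of the lactate receptor, was at a median of 3.32 CPM in Ctrl and 1.99 CPM in treated kidneys, with overlapping ranges and a log2 fold change of -0.74 (-1.17 to -0.32). Magee1, a member of the MAGE family, had a log2 fold change of -0.54 (-0.85 to -0.22).

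On the higher side, also picked after their values were seen, Mis18a, which helps to load the centromeric histone, lay between 55.91 and 110.4 CPM in Ctrl (median 85.4 CPM) and between 74.98 and 191.9 CPM in treated kidneys (median 133 CPM). Mis18a was above every Ctrl kidney in 11 of 14 treated kidneys, with a log2 fold change of 0.65 (95% interval 0.29 to 1.0). All CoCM and all i.v. ABCB5+ kidneys were above the Ctrl range, while the i.p. ABCB5+ kidneys overlapped it. Chrna5, a subunit of the nicotinic acetylcholine receptor, was at a median of 8.41 CPM in Ctrl and 14 CPM in treated kidneys, with a log2 fold change of 0.65 (0.30 to 1.0). Slc7a15, an amino acid transporter gene, had a log2 fold change of 0.51 (0.23 to 0.79). Polr3d, a subunit of RNA polymerase III, differed by less, with a log2 fold change of 0.17 (0.08 to 0.26), and 12 of 14 treated kidneys were above the Ctrl range. These genes all had an adjusted p of 0.902 by edgeR.

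**Figure D2:**
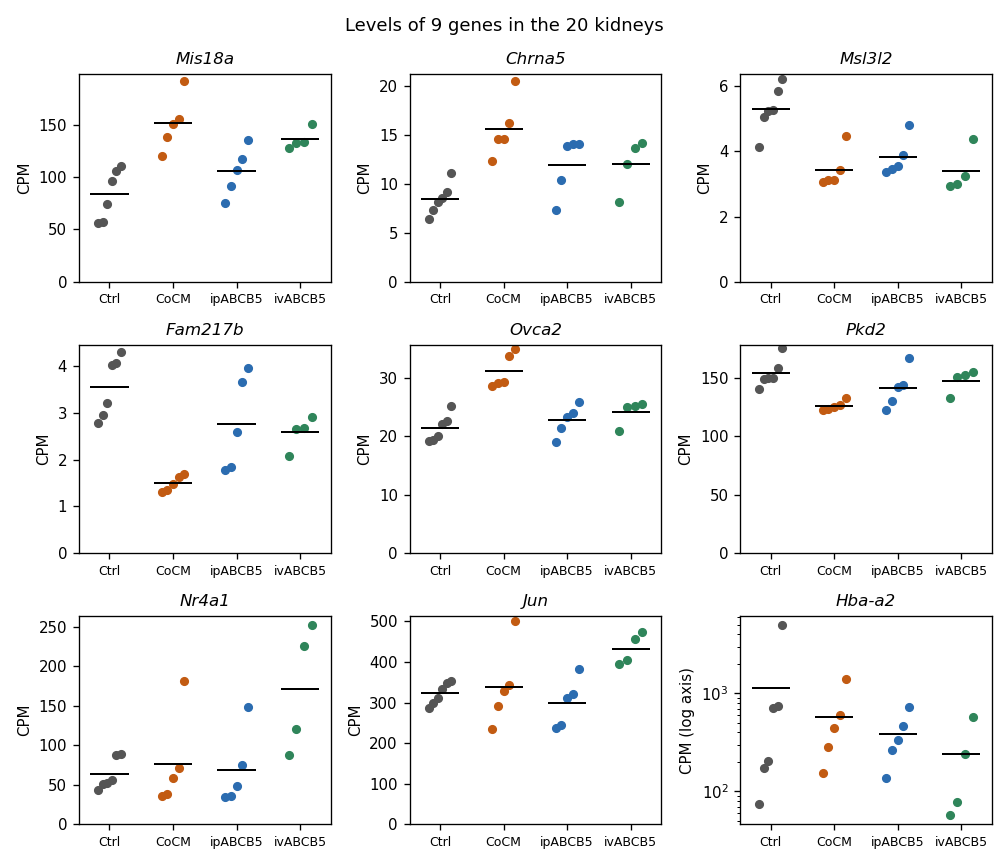
Levels in CPM of 9 genes in the 14 high-Spp1 treated and 6 Ctrl kidneys, 1 point per kidney, with the group mean as a line; Hba-a2 is on a log axis. Fam217b is lower and Ovca2 higher in every CoCM kidney than in any Ctrl kidney, Jun is higher in every i.v. ABCB5+ kidney than in any Ctrl kidney, and Hba-a2 is highest in 1 Ctrl kidney, at 4937 CPM.

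The genes most often read in this disease lay close to the untreated level. Of 37 such genes other than Spp1, 36 were tested, and their pooled log2 fold changes ran from -0.31 to 0.32, with 25 of them within 0.2 of no change. The half-widths of their 95% intervals ran from 0.14 to 0.93, so that for the widest of them a difference of nearly 2-fold would not have been detectable. Beside 4.16% of all genes, 1 of these 36 genes had an unadjusted p under 0.05. It was Pkd2, the gene of the polycystin-2 channel, at 141 to 176 CPM in Ctrl (median 150 CPM) and 122.8 to 167.2 CPM in treated kidneys (median 133 CPM). Treated kidneys were below every Ctrl kidney in 8 of 14 cases for Pkd2, and the pooled log2 fold change was -0.16 (-0.30 to -0.02, adjusted p = 0.902 by edgeR). In the single treatments the log2 fold change of Pkd2 was -0.29 for CoCM, -0.12 for i.p. and -0.06 for i.v. ABCB5+.

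Anks6, the gene mutated in this model, was at a median of 54.8 CPM in Ctrl and 63.1 CPM in treated kidneys, with overlapping ranges and a log2 fold change of 0.08 (-0.11 to 0.27). Havcr1, the gene of the tubular injury marker KIM-1, lay between 93.85 and 170.2 CPM in Ctrl and between 58.53 and 281.4 CPM in treated kidneys. The treated range of Havcr1 enclosed the Ctrl range, and the log2 fold change was 0.13 (-0.40 to 0.67). Fn1, the gene of the matrix protein fibronectin, had a log2 fold change of -0.31 (-0.82 to 0.19), and -0.07 without Ctrl 1. Umod and Slc12a1, both of the thick ascending limb, had log2 fold changes of 0.31 (-0.43 to 1.04) and 0.32 (-0.38 to 1.03). With 1 kidney left out these lay between 0.16 (without Ctrl 12) and 0.68 (without Ctrl 24) for Umod and between 0.19 (without Ctrl 1) and 0.73 (without Ctrl 24) for Slc12a1.

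Metabolic genes of the tubule had medians near 0 once the 4 low-Spp1 kidneys were left out. In 51 lists of pathway and cell type genes, with between 4 and 74 members tested, 0 members had an adjusted p under 0.05 in any comparison by edgeR. The median log2 fold change of all genes tested was -0.003. For the citrate cycle list (26 genes tested) the median was 0.001 with the 14 members and 0.29 when all 18 treated kidneys were kept. The median for fatty acid oxidation (23 genes) was 0.005 with the 14 members and 0.30 with all 18. Branched-chain amino acid degradation (23 genes) went from 0.39 with all 18 to 0.04, peroxisomal genes (36) from 0.26 to 0.02, and gluconeogenesis (10) from 0.36 to -0.08. Single Ctrl kidneys moved these medians. Gluconeogenesis was at -0.22 without Ctrl 12 and 0.05 without Ctrl 22, and branched-chain degradation at -0.04 without Ctrl 12 and 0.15 without Ctrl 24. None of the members of these 5 lists had an unadjusted p under 0.05 in the pooled comparison except 1 of the peroxisomal genes. The 14 and the 18 share most of their kidneys and all Ctrl kidneys, so that this is a description and was not tested.

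Single genes of these pathways spread widely within every group. Pck1, the gene of the enzyme that opens gluconeogenesis, lay between 108.3 and 1465 CPM in Ctrl and between 168.7 and 1706 CPM in treated kidneys. The log2 fold change of Pck1 was -0.24 (-1.17 to 0.69), and it was 0.53 with all 18 treated kidneys. Fbp1, a later enzyme of the same pathway, had a log2 fold change of -0.11 (-0.83 to 0.60), and 0.54 with all 18. Slc22a13, an organic anion transporter gene of the late proximal tubule, lay between 0.8058 and 2.393 CPM in Ctrl and between 1.183 and 5.087 CPM in the members. The log2 fold change of Slc22a13 was 0.65 (-0.01 to 1.31) with the 14 members and 2.58 with all 18. Slc2a1, the gene of the glucose carrier GLUT1, was the glycolysis gene with the smallest p, at a median of 72.7 CPM in Ctrl and 86.7 CPM in treated kidneys. Its log2 fold change was 0.24 (0.08 to 0.40).

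Respiratory chain genes kept a small positive median. For the 73 genes tested it was 0.10, with 70 of them above 0, against 0.32 with all 18 treated kidneys, and 0 had an unadjusted p under 0.05. Ndufa7, a subunit of complex I, had the smallest p, with a log2 fold change of 0.19 (-0.03 to 0.41). By treatment the median of the list was 0.18 for CoCM, 0.13 for i.p. and -0.04 for i.v. ABCB5+. Without i.p. ABCB5+ 41 the median of the i.p. comparison was 0.00. These genes were short, with a median relative length on the log2 scale of -2.22, and with the length trend of each library removed the pooled median was 0.03. It was 0.05 without Ctrl 12 and 0.06 on log2(TPM + 1).

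The matrix, fibroblast and macrophage lists had negative medians that were closer to 0 than with all 18 treated kidneys. The median for collagens and matrix proteins (33 genes) was -0.24, against -0.46 with all 18, and 1 of the 33 genes had a log2 fold change above 0. Col5a2, a fibrillar collagen gene, had the smallest p of this list, with a log2 fold change of -0.35 (-0.71 to 0.00). Fibroblast and pericyte genes (13) had a median of -0.26 against -0.50, with Dcn, the gene of decorin, at -0.45 (-0.97 to 0.08). Macrophage genes (17) had a median of -0.20 against -0.47, and Msr1, a scavenger receptor gene, had a log2 fold change of -0.60 (-1.30 to 0.11). These medians rested in part on Ctrl 1. Without that kidney they were -0.06 for the matrix list, -0.08 for fibroblasts and pericytes and -0.06 for macrophages, and the log2 fold changes were -0.21 for Col5a2, -0.31 for Dcn and -0.31 for Msr1. The B and plasma cell list (12) had a median of 0.17 with 11 genes above 0, against -0.14 with all 18, and it lay between 0.02 (without Ctrl 24) and 0.34 (without Ctrl 1) when 1 kidney was left out.

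Complement genes (24) had a median of -0.12, against -0.38 with all 18 treated kidneys, and C3ar1, the receptor of C3a, had a log2 fold change of -0.51 (-0.99 to -0.03). Interferon response genes (37) had a median of -0.12 against -0.26, with Ifih1, a sensor of viral RNA, at -0.29 (-0.50 to -0.07). Tubular injury genes (30) had a median of -0.04, against -0.26 with all 18. T and NK cell genes (19) had a median of -0.08 against -0.35. Of these 3 had an unadjusted p under 0.05, all lower in treated kidneys, beside 1.67% of all genes. Gzma, the gene of a granzyme of cytotoxic lymphocytes, had the smallest p of these, at a median of 1.51 CPM in Ctrl and 0.828 CPM in treated kidneys. Its log2 fold change was -1.04 (-1.70 to -0.37). The ranges of Gzma overlapped, at 0.2778 to 3.15 CPM in Ctrl and 0.2708 to 1.499 CPM in treated kidneys. A count of 3 corresponded to 0.212 to 0.322 CPM, so the lowest of these values rested on a few counts. The medians of these 4 lists were small, and single untreated kidneys moved them: without Ctrl 1 they were -0.04 for complement and 0.07 for tubular injury, without Ctrl 23 -0.02 for interferon response and without Ctrl 12 0.04 for T and NK cells. In the pooled comparison 10 of the 51 lists had a median beyond 0.2 in either direction, and 24 did with all 18 treated kidneys.

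**Figure D3:**
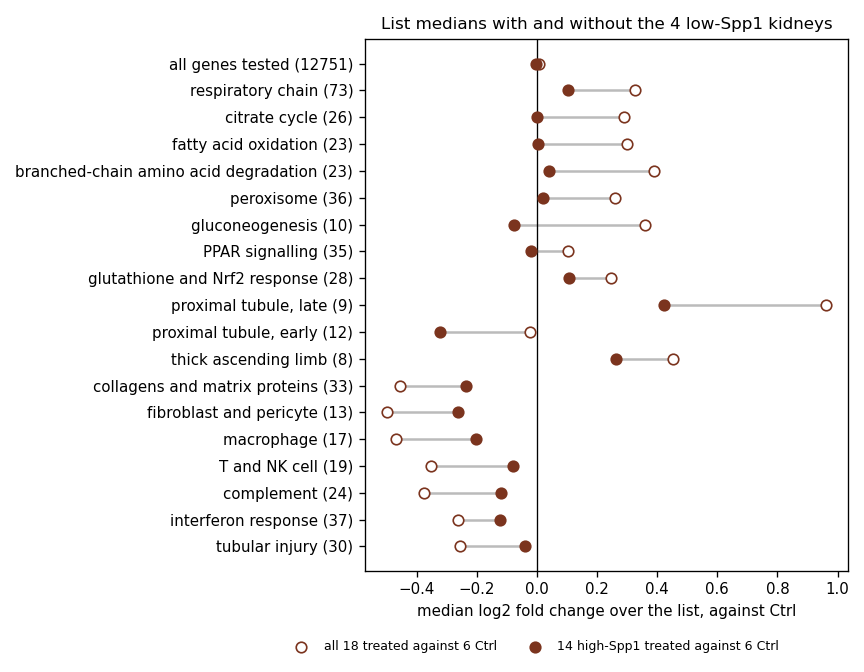
Median log2 fold change of 18 gene lists and of all genes tested, treated against the 6 Ctrl kidneys, with the number of genes in parentheses. Filled points are the 14 high-Spp1 treated kidneys and open points all 18, and for the citrate cycle list the filled point is at 0.001 and the open point at 0.29.

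Segment markers of the proximal tubule had pooled medians of opposite sign, though not in every treatment. Genes of the late proximal tubule (9) had a median of 0.42, with 8 above 0, and those of the early proximal tubule (12) had a median of -0.32, with 1 above 0. By treatment the early median was -0.67 for CoCM, -0.24 for i.p. and 0.01 for i.v. ABCB5+. The late median was 0.41, 0.53 and 0.10 in the same order. With all 18 treated kidneys the early median was -0.02 and the late median 0.96. None of these 21 genes had an unadjusted p under 0.05 in the pooled comparison. Slc34a3, a phosphate transporter of the early segment, was at a median of 77.3 CPM in Ctrl and 49.6 CPM in treated kidneys, with overlapping ranges and a log2 fold change of -0.59 (-1.23 to 0.05). The early list leaned on Ctrl 22, and without it the median was -0.11 and the value of Slc34a3 -0.33. Without i.v. ABCB5+ 43 the early median was -0.51. The late list had a median of 0.24 without Ctrl 12 and 0.80 without Ctrl 24. Thick ascending limb genes (8) had a median of 0.26, which was 0.16 without Ctrl 12 and 0.43 without Ctrl 24.

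The erythroid list had the median farthest from 0 of the 51 lists, and it rested on 1 untreated kidney. Hba-a2, an alpha-globin gene, lay between 74.07 and 4937 CPM in Ctrl (median 455 CPM) and between 57.89 and 1408 CPM in treated kidneys (median 309 CPM). Its pooled log2 fold change was -1.46 (-2.85 to -0.08), and without Ctrl 1 it was 0.12. Hbb, the beta-globin gene, had a log2 fold change of -1.39 (-2.91 to 0.13), and 0.50 without Ctrl 1. The erythroid list (9 genes) had a median of -1.39, 0.15 without Ctrl 1 and -0.49 on log2(TPM + 1). Globin copies are near-identical, and how the estimated counts were split between them is uncertain.

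Taken one at a time, CoCM gave more genes with an unadjusted p under 0.05 than either group that received cells. In CoCM against Ctrl 0 genes (0%) passed adjustment by edgeR, with a smallest adjusted p of 0.0957, and 2169 genes (17.0%) had an unadjusted p under 0.05, 929 (7.29%) higher and 1240 (9.72%) lower. DESeq2 called 118 genes in this comparison, 84 higher and 34 lower, and limma voom with quality weights called 26, 24 higher and 2 lower. Without Ctrl 23, the Ctrl library with the fewest counts, edgeR called 18. In i.p. ABCB5+ against Ctrl 0 genes (0%) passed adjustment, and 178 (1.40%) had an unadjusted p under 0.05, 91 (0.714%) higher and 87 (0.682%) lower. In i.v. ABCB5+ against Ctrl 0 genes (0%) passed adjustment, and 151 (1.18%) had an unadjusted p under 0.05, 96 (0.753%) higher and 55 (0.431%) lower. DESeq2 and limma voom also called 0 genes in both, with 222 and 980 genes at an unadjusted p under 0.05 for i.p. and 189 and 1095 for i.v. ABCB5+. The 3 comparisons share the same 6 Ctrl kidneys.

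All 5 CoCM kidneys were above all 6 Ctrl kidneys in 110 genes (0.863%) and below them in 118 (0.925%). For i.p. ABCB5+ these counts were 3 (0.0235%) and 4 (0.0314%), and for i.v. ABCB5+ they were 18 (0.141%) and 18 (0.141%). Full separation is easier to reach by chance with 4 kidneys than with 5, with 210 against 462 possible divisions. The i.v. counts are therefore not comparable with the others.

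The 3 genes with the smallest adjusted p in CoCM kidneys, again picked after their values were seen, were Fam217b, Ovca2 and Arb2a. Fam217b was at 1.309, 1.48 and 1.683 CPM (lowest, median, highest) in the CoCM kidneys and between 2.784 and 4.307 CPM in Ctrl (median 3.62 CPM). Its log2 fold change was -1.25 (-1.71 to -0.80, adjusted p = 0.0957 by edgeR), while it was -0.36 for i.p. and -0.46 for i.v. ABCB5+. Ovca2, a hydrolase gene that in human shares its locus with DPH1 so that reads may be split between them, was between 28.63 and 34.86 CPM in CoCM and between 19.22 and 25.1 CPM in Ctrl. Its log2 fold change was 0.54 (0.34 to 0.74, adjusted p = 0.0957 by edgeR), and 0.08 for i.p. and 0.17 for i.v. ABCB5+. Arb2a was between 35.67 and 40.64 CPM in CoCM and between 47.55 and 50.82 CPM in Ctrl, with a log2 fold change of -0.35 (-0.48 to -0.22). For these 3 genes and for Pkd2, every CoCM kidney lay outside the Ctrl range.

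In the signalling lists most CoCM differences with an unadjusted p under 0.05 were on the lower side, as they were over all genes, of which 9.72% were lower and 7.29% higher. Of 35 TGF-beta genes tested 10 had an unadjusted p under 0.05, all lower in CoCM, and the list median was -0.20. Tgfbr2, the type II receptor gene, was at a median of 100 CPM in Ctrl and 53 CPM in CoCM kidneys, with overlapping ranges and a log2 fold change of -0.82 (-1.33 to -0.32, adjusted p = 0.213 by edgeR). In the PI3K-Akt and mTOR list (39) 10 genes were lower and 1 higher at an unadjusted p under 0.05, with a median of -0.22. Integrin and focal adhesion genes (30) had 11 lower and 0 higher, with a median of -0.18. Itga8, an integrin gene of mesangial cells, had the smallest pooled p among them, with a log2 fold change of -0.68 in CoCM. WNT genes (39) had 7 lower and 0 higher, JAK-STAT genes (35) 8 lower and 0 higher, and NF-kappa B and TNF genes (45) 8 lower and 1 higher. Marker genes of endothelium (15), podocytes (11) and fibroblasts and pericytes (13) also had negative CoCM medians, of -0.24, -0.31 and -0.40. Those of collecting duct principal cells (12) and intercalated cells (11) had positive ones, of 0.21 and 0.18. Whether cell content took part in the signalling values was not tested.

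In the collagen and matrix list 7 of 33 genes were lower in CoCM at an unadjusted p under 0.05 and 0 higher, beside 9.72% and 7.29% of all genes. The median was -0.40, and without Ctrl 1 it was -0.23. Col4a1, a chain of basement membrane collagen, was at a median of 919 CPM in Ctrl and 771 CPM in CoCM, and its log2 fold change was -0.37 (-0.72 to -0.02, adjusted p = 0.276 by edgeR). Bmp2, a growth factor gene of the TGF-beta family, had a pooled log2 fold change of -0.39 (-0.71 to -0.07) and one of -0.59 in CoCM.

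Genes of the ribosome and the proteasome, which make and break down proteins, had positive medians in CoCM. Of 74 genes of the cytosolic ribosome 14 had an unadjusted p under 0.05, all higher in CoCM, beside 7.29% of all genes. The list median was 0.22, and 0.14 without CoCM 26. Rps21, a protein of the small subunit, was at a median of 241 CPM in Ctrl and 302 CPM in CoCM, with overlapping ranges and a log2 fold change of 0.38 (0.09 to 0.67, adjusted p = 0.235 by edgeR). Of 37 proteasome genes 7 had an unadjusted p under 0.05, all higher, and the median was 0.12, and 0.08 without CoCM 26. Psma3, a subunit of the core particle, had a log2 fold change of 0.35 (0.13 to 0.57). In i.p. ABCB5+ and i.v. ABCB5+ kidneys 0 genes of either list had an unadjusted p under 0.05.

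Transcript length varied along with the CoCM difference. Genes were divided into 3 equal parts by a relative length. This length was derived as the ratio of count to TPM, scaled within each library, with the median taken over libraries. The shortest had a median log2 fold change in CoCM of 0.10 and the longest one of -0.11. At an unadjusted p under 0.05, 485 of the shortest genes were higher and 195 lower, while 121 of the longest were higher and 719 lower. The correlation of log2 CPM deviation with length across genes was negative in all 5 CoCM kidneys, between -0.36 and -0.10, whereas it took both signs in Ctrl (-0.35 to 0.35), i.p. ABCB5+ (-0.34 to 0.39) and i.v. ABCB5+ (-0.27 to 0.30). Genes share each library, and this correlation is a description of the libraries. With the trend of each library removed, 1856 genes had an unadjusted p under 0.05 in CoCM and 0 were called. The list medians were then 0.06 for the ribosome, 0.06 for the proteasome, 0.04 for the respiratory chain, -0.06 for integrins, -0.15 for TGF-beta, -0.14 for PI3K-Akt and mTOR and -0.30 for collagens and matrix. How far length took part in these differences was not otherwise tested.

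**Figure D4:**
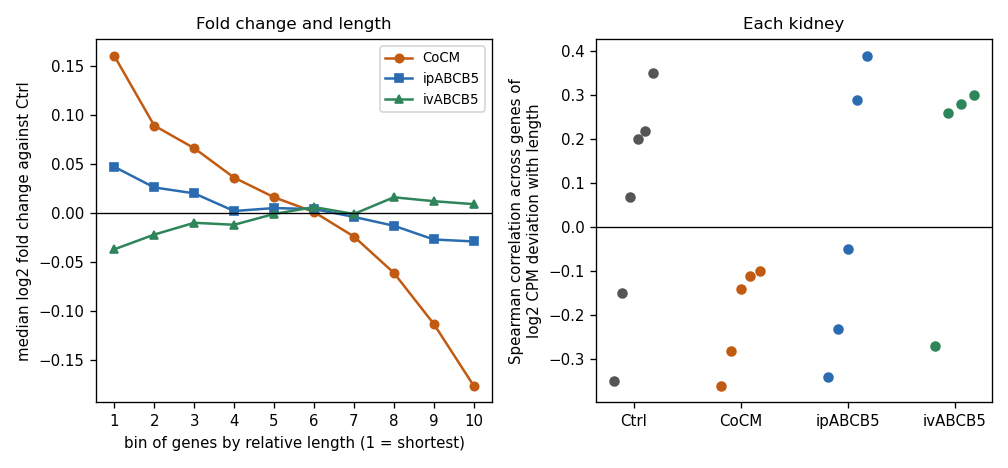
Left, median log2 fold change against Ctrl over 10 equal bins of the genes ordered by relative length, for each treatment, from 0.16 in the shortest to -0.18 in the longest bin in CoCM. Right, Spearman correlation across genes of log2 CPM deviation with length in each kidney, negative in all 5 CoCM kidneys and of both signs in the other groups.

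Fat cell genes were high in 1 CoCM kidney. The adipocyte list (6 genes) had a median of 1.0 in CoCM, and -0.17 without CoCM 34. Adipoq was at 134.3 CPM in CoCM 34 and between 19.12 and 23.4 CPM in the other CoCM kidneys, inside the Ctrl range of 17.5 to 42.75 CPM. Early proximal tubule genes (12) had a median of -0.67 in CoCM, with 4 lower at an unadjusted p under 0.05, beside 9.72% of all genes, and 0 higher. Without Ctrl 22 that median was -0.41.

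Immediate early genes, which cells switch on within minutes of a stimulus, had their highest median in i.v. ABCB5+ kidneys. Of 26 tested 7 had an unadjusted p under 0.05 in i.v. ABCB5+ against Ctrl, all higher, beside 0.753% of all genes, and the median was 0.35. In CoCM and i.p. ABCB5+ kidneys 0 had, with medians of 0.07 and -0.06. Leaving out any 1 kidney kept the i.v. median between 0.30 and 0.43. Nr4a1, an inducible nuclear receptor gene, was at 87.16 to 252.6 CPM in i.v. ABCB5+ kidneys (median 173 CPM) and at 42.58 to 89.19 CPM in Ctrl (median 54.2 CPM). Its log2 fold change was 1.44 (0.48 to 2.40), and its adjusted p by edgeR was at or near 1. Nr4a3, of the same family, had a log2 fold change of 1.30 (0.37 to 2.22), and 0.74 without i.v. ABCB5+ 43. Jun, a subunit of the AP-1 transcription factor, was between 396.3 and 473 CPM in the i.v. ABCB5+ kidneys and between 286.7 and 352.2 CPM in Ctrl, so that the groups did not overlap. The log2 fold change of Jun was 0.42 (0.09 to 0.76). In CoCM 40, i.p. ABCB5+ 29 and Ctrl 1 this list was also high. Their mean deviations on the log2 scale were 0.83, 0.53 and 0.47, beside 0.27 to 0.60 in the i.v. ABCB5+ kidneys.

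Interferon response genes had their lowest median in i.p. ABCB5+ kidneys. In i.p. ABCB5+ against Ctrl 5 of 37 had an unadjusted p under 0.05, all lower, against 0.682% of all genes, and the median was -0.21, beside -0.11 in CoCM and -0.10 in i.v. ABCB5+. Oasl2, an interferon-induced gene, was at 19.17 to 28.88 CPM in i.p. ABCB5+ and at 23.85 to 48.16 CPM in Ctrl, with a log2 fold change of -0.42 (-0.75 to -0.10). Mx1, an antiviral GTPase gene, had a log2 fold change of -0.58 (-1.08 to -0.08). Without Ctrl 23 the i.p. median of the list was -0.12 and the i.v. median -0.06, and without CoCM 34 the CoCM median was -0.01. With all 18 treated kidneys the lowest median was that of i.v. ABCB5+, at -0.38, beside -0.29 in i.p. ABCB5+ and -0.19 in CoCM.

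**Figure D5:**
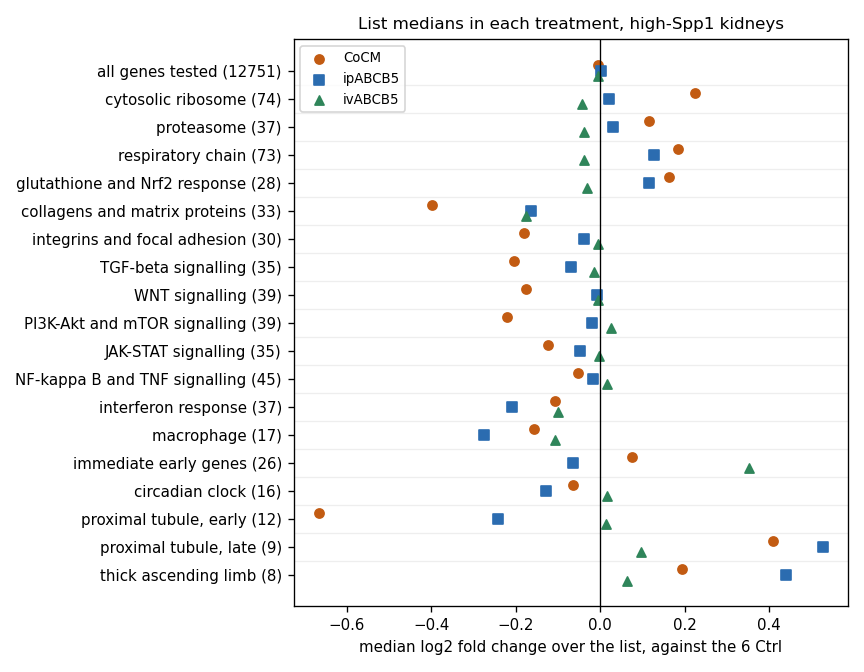
Median log2 fold change of 18 gene lists and of all genes tested in each treatment against the 6 Ctrl kidneys, with the number of genes in parentheses, for the 14 high-Spp1 treated kidneys. The CoCM points of the signalling lists lie at -0.05 or lower, and immediate early genes are at 0.35 in i.v. ABCB5+ and at -0.06 in i.p. ABCB5+.

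The treatments were then compared with each other directly, without the Ctrl kidneys in the contrast. In the F-test over the 3 treatments 0 genes (0%) passed adjustment by edgeR, with a smallest adjusted p of 0.734, and 784 (6.15%) had an unadjusted p under 0.05. DESeq2 also called 0, with 999, and limma voom called 0, with 2367. The smallest adjusted p was 0.0716 by DESeq2 and 0.222 by limma voom. The edgeR count of 784 lay between 315 (without CoCM 26) and 1386 (without i.p. ABCB5+ 41) when 1 kidney was left out. Between CoCM and i.p. ABCB5+ 0 genes (0%) were called and 1086 (8.52%) had an unadjusted p under 0.05, 382 (3.0%) higher and 704 (5.52%) lower in CoCM. Leaving out 1 kidney moved this count between 492 (without i.p. ABCB5+ 30) and 1953 (without i.p. ABCB5+ 41). The balance turned to 376 higher and 262 lower without i.p. ABCB5+ 29, and to 276 and 216 without i.p. ABCB5+ 30. On log2(TPM + 1) 146 were higher and 474 lower. DESeq2 called 2 genes in that comparison, 1 in each direction. Between CoCM and i.v. ABCB5+ 0 (0%) were called and 1380 (10.8%) had an unadjusted p under 0.05, 476 (3.73%) higher and 904 (7.09%) lower in CoCM. Leaving out 1 kidney moved this count between 376 (without i.v. ABCB5+ 43) and 2265 (without i.v. ABCB5+ 28). On log2(TPM + 1) 130 were higher and 1289 lower. Between i.p. and i.v. ABCB5+ 0 (0%) were called and 143 (1.12%) had an unadjusted p under 0.05, 55 (0.431%) higher and 88 (0.690%) lower in i.p. ABCB5+. Leaving out 1 kidney moved that count between 89 (without i.v. ABCB5+ 43) and 464 (without i.p. ABCB5+ 29). DESeq2 and limma voom called 0 genes in both of these pairs, with 1532 and 3200 at an unadjusted p under 0.05 for CoCM against i.v. and 158 and 1495 for i.p. against i.v. ABCB5+. For 89.8% of genes the 95% interval of the i.p. to i.v. difference lay within a 2-fold change, and for 67.9% within 1.5-fold. For CoCM against i.p. these shares were 87% and 65%, and for CoCM against i.v. 84.3% and 60.5%.

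Rgs5, a regulator of G-protein signalling and a pericyte marker, had the smallest p between treatments. It was at 11.04 to 25.72 CPM in CoCM, at 32.94 to 46.04 CPM in i.p. ABCB5+, at 22.18 to 37.06 CPM in i.v. ABCB5+ and at 24.62 to 39.56 CPM in Ctrl. The CoCM and i.p. ABCB5+ kidneys did not overlap, and the log2 fold change of Rgs5 between CoCM and i.p. ABCB5+ was -1.08 (-1.50 to -0.66, adjusted p = 0.423 by edgeR). Against Ctrl its log2 fold change was -0.77 for CoCM, 0.32 for i.p. and -0.10 for i.v. ABCB5+. DESeq2 called this gene between CoCM and i.p. ABCB5+. In the signalling lists 6 TGF-beta genes of 35 and 7 NF-kappa B and TNF genes of 45 had an unadjusted p under 0.05 over the 3 treatments, as had 7 of the 26 immediate early genes, beside 6.15% of all genes.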

How the data were processed

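Whole-kidney RNA of 24 rats was sequenced on the BGISEQ-500. The deposited files give estimated counts per gene and, in separate files, TPM values that the authors scaled by length. Trim Galore 0.6.4, kallisto 0.4.6 and rn6 are named in the submitters' processing notes, the study's methods name a human annotation package, and the annotation itself is not given in the sources used here. Each file held 17334 genes by Entrez number, of which 17179 matched a symbol in RefSeq.

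Estimated counts were rounded to whole numbers and tested in R 4.3.3 with edgeR 4.0.16 (filterByExpr, TMM factors of 0.942 to 1.078, quasi-likelihood F-test, Benjamini-Hochberg adjustment over 12751 genes, threshold 0.05), tested first on simulated data. Pooled treatment was fitted with 2 means and single treatments with 4 means over the same 20 libraries. DESeq2 1.42.0, limma 3.58.1 (voom with quality weights, and log2(TPM + 1)), other filters, size factors, thinned counts, all 18 treated kidneys, and leaving out each library were alternatives. Removal of each library's length trend was added after the data were seen. A count of 3 corresponded to 0.212 to 0.322 CPM, and this floor covers counting error only. No 2 libraries of a group agreed within sampling noise. Each library is named as a separate animal by its number, and only these animals' spread enters the p-values.

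Members and gene lists were chosen with earlier results of these data known. Genes named were those passing adjustment (none), the member of each list with the smallest pooled p, and a panel of disease genes. Others, such as Tgfbr2, Col4a1, Adipoq, Nr4a1, Nr4a3, Jun, Oasl2, Mx1, Hbb and Rgs5, were picked after their values were seen.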

Additional observations from a re-analysis of the deposited data

Results flagged for a closer look

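Within each group of 4 to 6 kidneys, every reported gene, list score, total count, component and length correlation was checked for a kidney far from the others, that is, a gap to the nearest kidney above the 95% critical value of Dixon's test. Of 332 sets of values 28 were above it (8.43%). The 1 in 20 that chance would give holds for independent values with a normal spread. These sets came from the same kidneys and many genes were picked beforehand, so the share cannot be read as an excess. No explanation was tested for them.

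Among untreated kidneys, Ctrl 1 had 4937 CPM of Hba-a2 and 1412 CPM of Hbb, against at most 738.5 and 157.8 CPM in the other 5. Ctrl 24 was the highest for Umod (5892 CPM), Slc12a1 (1731 CPM) and Adipoq (42.75 CPM). Ctrl 22 was the highest for Slc34a3 (148.3 CPM), Ctrl 23 had the highest Nr4a3 (12.41 CPM), and the library of Ctrl 23 held 10405757 counts, the others of Ctrl at least 13320840.

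Among CoCM kidneys, CoCM 40 was the highest for Msl3l2 (4.474 CPM), Hcar1 (3.057 CPM), Nr4a1 (181 CPM) and Nr4a3 (15.73 CPM). CoCM 34 had 134.3 CPM of Adipoq and a mean deviation of the adipocyte list of 2.31, against -0.2 to 0.05 in the other CoCM kidneys.

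Among i.p. ABCB5+ kidneys, number 29 was the highest for Hcar1 (2.932 CPM) and Col5a2 (186.8 CPM), and number 30 had the highest mean deviation of the B and plasma cell list (0.73).

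Among i.v. ABCB5+ kidneys, number 43 had the lowest Ovca2 (20.83 CPM) and Adipoq (12.62 CPM), and the highest Ifih1 (27.37 CPM), Col4a1 (1012 CPM), Mx1 (47.73 CPM) and mean deviation of PPAR signalling genes (0.36). Number 28 was apart in its length correlation (-0.27, the others 0.26 to 0.30), in cAMP and vasopressin signalling genes (-0.1) and in proteasome genes (0.08). Number 42 had the lowest Csf1 (75.15 CPM) and the lowest mean deviation of NF-kappa B and TNF genes (-0.07).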

How the results depend on the processing

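The count of 0 genes called by edgeR in the pooled comparison was 0 under every alternative run, leaving out each library included. In CoCM against Ctrl it was 118 with DESeq2, 26 with limma voom, 1 with all 18 treated kidneys and 0 to 18 when 1 library was left out (18 without Ctrl 23), and between CoCM and i.p. ABCB5+ it was 2 with DESeq2. The cause was not tested. The other comparisons gave 0 throughout. The count at an unadjusted p under 0.05, 530 in the pooled comparison, was 890 with all 18 treated kidneys, 1109 with limma voom, 339 on log2(TPM + 1) and 314 (without Ctrl 22) to 941 (without Ctrl 23) when 1 library was left out. In CoCM, 2169 became 1336 (without CoCM 26) to 2763 (without CoCM 40), and log2(TPM + 1) gave 383 higher and 1458 lower genes, 20.8% higher against 42.8%. In i.v. ABCB5+ it gave 109 higher and 25 lower, 81.3% higher against 63.6%. With all 18 treated kidneys the pooled log2 fold change was -0.20 for Havcr1, 0.53 for Pck1 and 0.54 for Fbp1, and for Fbp1 0.13 on log2(TPM + 1), each of opposite sign to the value with the 14. With 1 library left out, Pck1 lay between -0.54 and 0.27 (without Ctrl 22), Fbp1 between -0.32 and 0.11 (without Ctrl 22), Hba-a2 between -1.76 and 0.12 and Hbb between -1.77 and 0.50 (both highest without Ctrl 1), and Adipoq in CoCM between -0.20 (without CoCM 34) and 1.1. No paired analysis was possible because no replicate number is shared between the groups. With at least 10209460 counts per library, depth limited genes of low CPM such as Gzma.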
